A study of Homo sapiens with 18 samples.

Results

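The genes described here are 10 immediate early genes, EGR1, FOS, FOSB, JUN, JUNB, DUSP1, KLF2, IER2, IER3 and ATF3, in SKBR3 cells under basal conditions and at 0.1 or 1 µM of lapatinib. They were chosen by measured values of these same arrays, as early response genes of which several peaked at 0.1 µM, so their levels at 0.1 µM are a description and carry no test. The array table holds 48803 probes, of which 12 carry a member's symbol. Each member had at least 1 probe above background on enough arrays, so all 10 are among the 12547 genes tested. ATF3 has 3 probes, of which 2 were not above background on any of the 18 arrays, and its values come from the remaining probe. The other members have 1 probe each.

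SKBR3 is an established breast cancer cell line with an amplified ERBB2 gene, and lapatinib is a small-molecule inhibitor of the EGFR and ERBB2 tyrosine kinases. The study used parental SKBR3 cells and a lapatinib-resistant SKBR3 line, each under basal conditions, at 0.1 µM and at 1 µM of the drug, with 3 arrays in each of the 6 groups. The labels do not give the length of treatment, the vehicle, how the resistant line was made, whether it is 1 clone, or whether the arrays of a group came from separate cultures. The p-values therefore measure only the spread between these arrays, which may be technical, and 3 arrays a group limit the precision.

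Immediate early genes are transcribed within minutes of a stimulus, without new protein synthesis. Growth factor receptors reach many of them through RAS and the ERK kinases, which phosphorylate ELK1 and other partners of serum response factor, and cAMP and stress signals reach them through CREB-family factors. Their transcripts decay quickly, so a level reflects both synthesis and decay, and some of the proteins, such as DUSP1, feed back on the kinases that induce them. In RNA from whole cultures, fewer cells making a transcript and less transcript per cell cannot be told apart.

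Mean probe intensity per array was 646 ± 25.9 (SD, n = 3) in the parental basal group, 532.6 ± 21.2 at 0.1 µM and 505 ± 25 at 1 µM. The resistant groups had 481 ± 40.5 under basal conditions, 425 ± 8.16 at 0.1 µM and 438 ± 8.75 at 1 µM. Between 36.2% and 39.68% of probes were above background on an array. Arrays of a group correlated at r = 0.986 to 0.996 over the 12547 tested genes, the lowest value being in the resistant group at 0.1 µM. Of 10 luminal and ERBB2 amplicon genes, 8 were above background, ERBB2, GRB7, KRT8, KRT18, KRT19 and EPCAM among them, and CDH1 and PGR were not. The mean signal of this list per group was 62.6 to 76 times background. Of the markers of other cell types, 2 of 6 fibroblast, 3 of 6 leukocyte (5 with a probe) and 5 of 6 endothelial genes passed the filter. Their mean signals per group were 1 to 1.08, 2.6 to 3 and 1.24 to 1.45 times background. The brightest leukocyte gene tested was CD68, at a mean log2 signal of 10.1. Over all genes, 12547 of 18852 passed the filter.

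The promoters of 4 members that peaked at 0.1 µM in both lines are shown first. Within the bases printed, the letters that serum response factor and CREB-family factors are known to bind differ between them. RefSeq promoters (build GRCh38.p14) were found for 9 of the 10 members, ATF3 with 2 starts. The 250 bases before the annotated start are printed 5′ to 3′ on the gene's strand, and capitals mark CArG boxes, the serum response factor motif, and the cAMP response core TGACG on either strand (its reverse complement reads CGTCA). DUSP1 lies at chr5:172771196-172771445 on the minus strand, FOS at chr14:75278578-75278827, EGR1 at chr5:138465229-138465478 and KLF2 at chr19:16324576-16324825, the last 3 on the plus strand.
DUSP1: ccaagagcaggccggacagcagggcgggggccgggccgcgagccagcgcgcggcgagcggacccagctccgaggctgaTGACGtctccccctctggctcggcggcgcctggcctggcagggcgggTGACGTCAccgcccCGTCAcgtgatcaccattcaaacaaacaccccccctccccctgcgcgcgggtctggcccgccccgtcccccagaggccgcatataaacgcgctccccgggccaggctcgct
FOS: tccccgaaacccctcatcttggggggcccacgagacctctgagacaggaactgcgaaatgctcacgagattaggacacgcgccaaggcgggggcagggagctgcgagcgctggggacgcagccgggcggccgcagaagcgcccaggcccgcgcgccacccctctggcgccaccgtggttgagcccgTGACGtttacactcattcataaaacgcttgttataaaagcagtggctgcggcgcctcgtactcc
EGR1: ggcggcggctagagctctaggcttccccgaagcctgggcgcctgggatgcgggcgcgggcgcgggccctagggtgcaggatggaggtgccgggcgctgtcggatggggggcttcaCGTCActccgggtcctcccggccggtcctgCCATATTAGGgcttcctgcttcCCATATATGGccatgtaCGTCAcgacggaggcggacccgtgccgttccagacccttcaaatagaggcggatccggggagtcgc
KLF2: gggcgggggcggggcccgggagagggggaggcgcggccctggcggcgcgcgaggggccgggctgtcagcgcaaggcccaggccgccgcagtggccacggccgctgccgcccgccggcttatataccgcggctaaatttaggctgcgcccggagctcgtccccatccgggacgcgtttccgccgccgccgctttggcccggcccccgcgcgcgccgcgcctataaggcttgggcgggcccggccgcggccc

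DUSP1 holds 4 core sites, from 172 to 107 bases before the start, a pair of which overlap to form the full cAMP response element TGACGTCA at 125 to 118 bases before it. Over all 35116 promoters of the same length in the table, 0.313% held 4 or more core sites and 1.85% held the full element. EGR1 holds 2 CArG boxes, 105 to 96 and 83 to 74 bases before the start, and 2 core sites. A CArG box was found in 1.29% of all promoters, and 2 or more in 0.0313%. FOS holds 1 core site, at 64 to 60 bases before the start, and KLF2 holds neither motif, so its sequence has no capitals.

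FOSB and JUNB, which did not peak at 0.1 µM, are shown for contrast, at chr19:45467746-45467995 and chr19:12791236-12791485, both on the plus strand.
FOSB: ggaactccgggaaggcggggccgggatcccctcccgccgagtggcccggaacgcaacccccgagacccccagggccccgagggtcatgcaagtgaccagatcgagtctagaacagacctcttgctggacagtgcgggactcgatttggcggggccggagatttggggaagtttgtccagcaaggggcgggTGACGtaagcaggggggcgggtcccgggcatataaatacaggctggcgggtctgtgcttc
JUNB: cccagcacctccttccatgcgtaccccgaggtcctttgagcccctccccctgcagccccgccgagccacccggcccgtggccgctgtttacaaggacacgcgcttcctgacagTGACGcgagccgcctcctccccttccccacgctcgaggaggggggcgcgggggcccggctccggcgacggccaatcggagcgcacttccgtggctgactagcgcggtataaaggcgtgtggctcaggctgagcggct

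Each of these holds 1 core site, and in both a TATA box (TATAAA) begins 30 or 31 bases before the start, as one does in DUSP1. The core site was found in the promoters of 7 members, EGR1, FOS, FOSB, JUN, JUNB, DUSP1 and IER2, and in 24.6% of all promoters. It was thus present both in members that peaked at 0.1 µM and in members that did not. The EGR site GCGNGGGCG, the motif of EGR1 itself, was found in EGR1 and in KLF2, which holds 2 (9.43% of all promoters), with GC boxes (GGGCGG) overlapping it in KLF2. The AP-1 site TGANTCA, bound by FOS and JUN dimers, was in no member's window and in 7.71% of all promoters. The ETS core CCGGAAG was found in IER2 alone (10.3%), the FOXO site GTAAACA in JUNB alone (3.42%), the GC box in 7 member promoters (45%) and the TATA box in 5 (11.5%). The GC content of the member promoters ranged from 46.3% in an ATF3 window to 80.7% in KLF2, against a median of 58.7% over all promoters. A match is a string of letters and not a measured site.

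**Figure D1:**
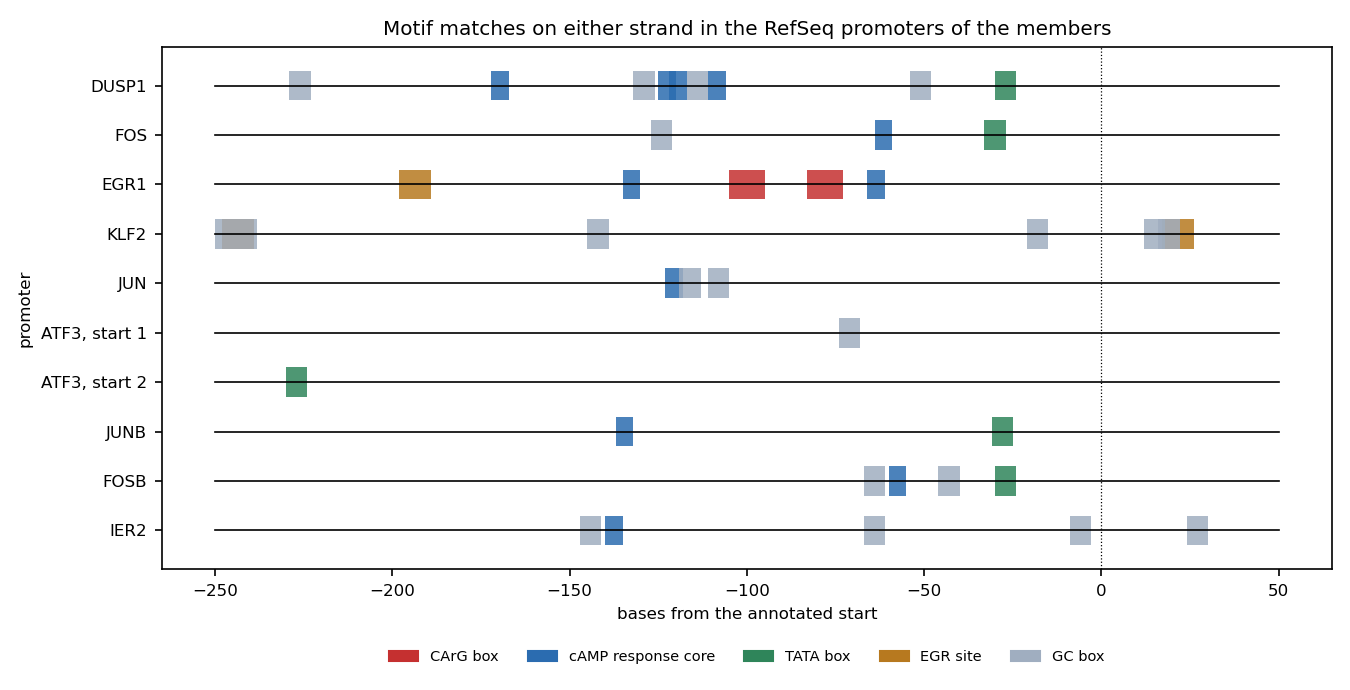
Motif matches along the 10 RefSeq promoters of 9 members, by distance in bases from the annotated start (0). Colours mark CArG boxes, cAMP response cores, TATA boxes, EGR sites and GC boxes on either strand. Within the window drawn, CArG boxes are seen in EGR1 alone and the densest core sites in DUSP1.

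At 0.1 µM, DUSP1, FOS, EGR1, KLF2 and IER3 had their highest mean in both lines. In the parental line JUN made the count 6 of 10, and in the resistant line ATF3 made it 6 of 10, while over all tested genes 22.7% and 24.9% had their highest mean at 0.1 µM and 6.03% did so in both lines. By arrays, 6 members in the parental line (DUSP1, FOS, EGR1, KLF2, IER3 and JUN) and 3 in the resistant line (DUSP1, FOS and KLF2) had every 0.1 µM array above every basal and 1 µM array. The parental count was 3 with median scaling over all probes, and the resistant count was 6 without the third resistant 0.1 µM array. Over all tested genes the corresponding shares were 1.51% and 0.98%. Apart in both lines were DUSP1, FOS and KLF2 among the members, and 6 genes in all (0.0478%), the others being CCN2, NR4A2 and DGCR6, the last of which was named after its values were seen. The total of 6 depended on single arrays and on the scaling. It was 23 without resistant 0.1 µM replicate 3, 14 without parental 0.1 µM replicate 3 or resistant 0.1 µM replicate 1, 9 without parental 0.1 µM replicate 1 or resistant basal replicate 2, and 2 (DUSP1 and FOS) when arrays were scaled by their median over all probes. Because these values chose the members, nothing is read from the counts against those shares. FOSB, JUNB and IER2 had their highest mean under basal conditions in both lines.

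**Figure D2:**
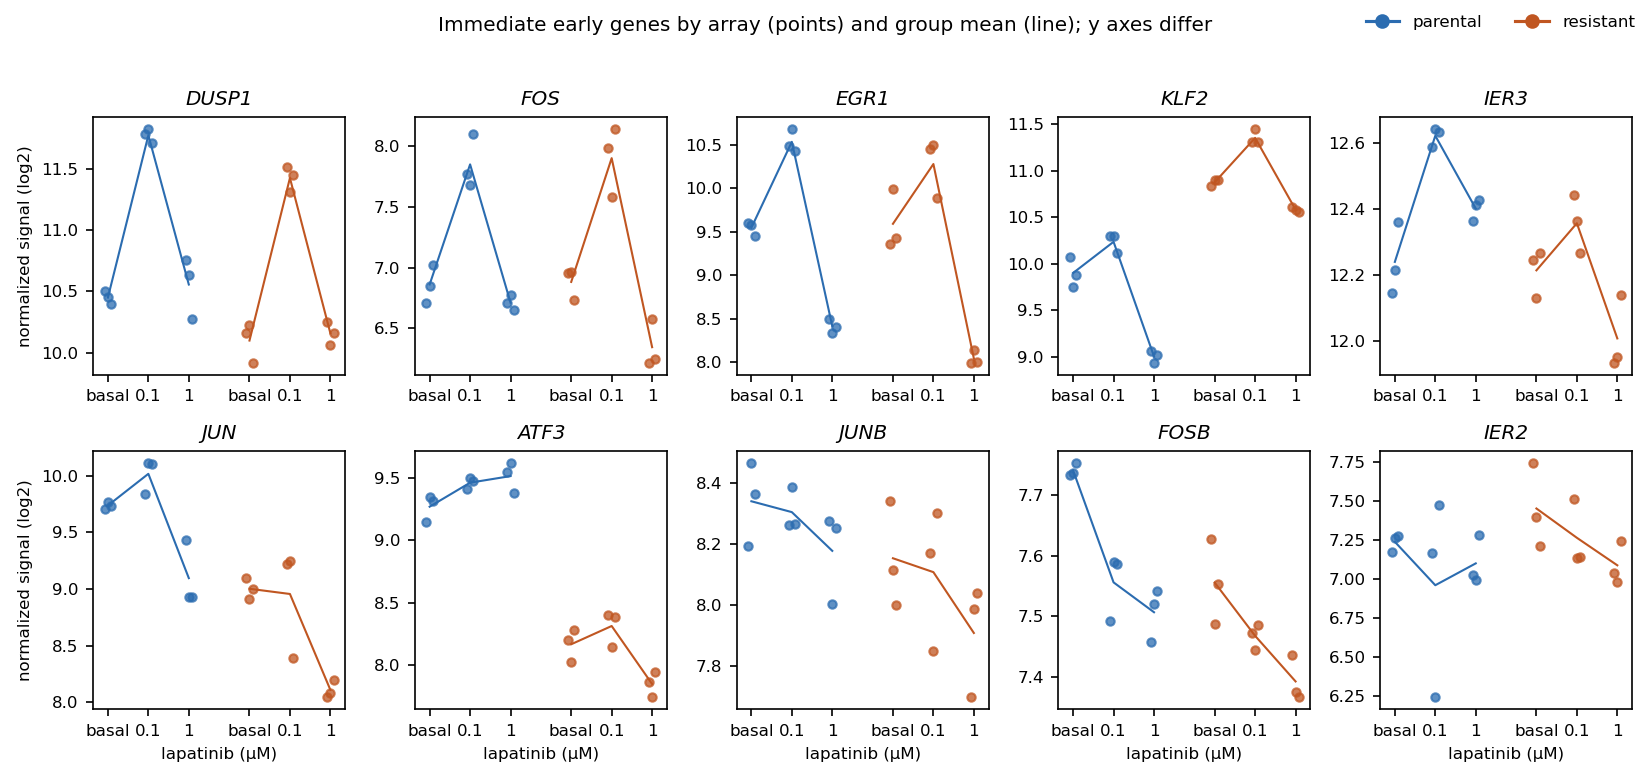
Normalized log2 signal of the 10 members on all 18 arrays (points) by lapatinib dose (µM), with lines through the group means (n = 3), parental in blue and resistant in orange, and a separate y axis for each gene. DUSP1, FOS and KLF2 stand apart at 0.1 µM in both lines, and FOSB, JUNB and IER2 do not.

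DUSP1 encodes a dual-specificity phosphatase that inactivates MAP kinases. In the parental line its normalized log2 signal was 10.50, 10.45 and 10.40 on the basal arrays, 11.78, 11.82 and 11.71 at 0.1 µM, and 10.76, 10.64 and 10.27 at 1 µM. In the resistant line it was 10.16, 10.22 and 9.92, then 11.52, 11.31 and 11.45, then 10.25, 10.07 and 10.16. The 0.1 µM arrays lay above all others in both lines, and the basal and 1 µM arrays overlapped. The deposited intensities, before any scaling, also set them apart, at 3347 to 3758 at 0.1 µM against 1351 to 2091 on the other parental arrays, and 2083 to 2571 against 863 to 1242 on the other resistant arrays. The log2 difference between 0.1 µM and basal was 1.32 ± 0.11 (SE) in each line, a fold of 2.5. After normalization DUSP1 was again near its basal level at 1 µM, with log2 differences from basal of 0.11 ± 0.11 (adjusted p = 0.537) and 0.06 ± 0.11 (adjusted p = 0.764). These were -0.22 and -0.07 with median scaling over all probes, also without a call. In the deposited intensities the parental 1 µM arrays, at 1351 to 1628, lay below the basal ones, at 1768 to 2091. The resistant basal and 1 µM arrays overlapped there too. DUSP1 had the largest difference between 0.1 µM and basal of the members in both lines.

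FOS encodes the AP-1 subunit that pairs with JUN proteins. Its parental log2 signals were 6.71, 6.85 and 7.02 under basal conditions, 7.77, 7.68 and 8.10 at 0.1 µM, and 6.71, 6.77 and 6.65 at 1 µM. Its resistant log2 signals were 6.95, 6.96 and 6.73, then 7.98, 7.58 and 8.14, then 6.21, 6.58 and 6.25. All 6 arrays at 0.1 µM lay above all others of their line. FOS is a dim probe, at 73.6 to 272.2 in intensity, and was above background on 16 of 18 arrays, with 1 of 3 above it in the resistant line at 1 µM. The log2 difference between 0.1 µM and basal was 0.99 ± 0.14 in the parental and 1.02 ± 0.14 in the resistant line (folds of 1.98 and 2.03). At 1 µM, FOS fell below basal by 0.54 ± 0.14 on the log2 scale in the resistant line (adjusted p = 0.00668), and in the parental line the difference was -0.15 ± 0.14 (adjusted p = 0.5). The test of the difference between those responses gave -0.39 ± 0.20 (adjusted p = 0.444).

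EGR1 encodes a zinc finger transcription factor and is a standard readout of ERK signalling. Parental log2 signals were 9.61, 9.58 and 9.46 under basal conditions, 10.49, 10.68 and 10.43 at 0.1 µM, and 8.49, 8.34 and 8.41 at 1 µM. Resistant log2 signals were 9.36, 9.99 and 9.43, then 10.46, 10.49 and 9.89, then 7.99, 8.14 and 8.01. The 3 treatments were apart on all parental arrays. In the resistant line the second basal array, at 9.99, lay above the third 0.1 µM array, at 9.89, and all 1 µM arrays lay below both groups. The log2 difference between 0.1 µM and basal was 0.99 ± 0.14 (fold 1.98) in the parental and 0.69 ± 0.14 (fold 1.61) in the resistant line. Between 0.1 and 1 µM EGR1 dropped by 2.12 ± 0.14 and dropped by 2.23 ± 0.14 on the log2 scale, a fold of 4.34 and 4.7, the widest spans of any member.

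KLF2 encodes a Krüppel-like zinc finger factor. Parental log2 signals were 10.08, 9.75 and 9.88 under basal conditions, 10.31, 10.30 and 10.11 at 0.1 µM, and 9.06, 8.93 and 9.02 at 1 µM. Resistant log2 signals were 10.84, 10.90 and 10.90, then 11.31, 11.45 and 11.31, then 10.61, 10.58 and 10.56. The 3 treatments were apart on all arrays in both lines, and every resistant array was above every parental array. The log2 difference between 0.1 µM and basal was 0.34 ± 0.095 in the parental and 0.48 ± 0.095 in the resistant line. The parental value depended on the scaling. It was 0.01 when arrays were scaled by their median over all probes, and the deposited intensities of 1085 to 1349 at 0.1 µM overlapped those of 1083 to 1545 under basal conditions.

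IER3 encodes an early response protein linked to cell survival. Its parental log2 signal ran from 12.14 to 12.36 under basal conditions, 12.59 to 12.64 at 0.1 µM and 12.36 to 12.43 at 1 µM. In the resistant line it ran from 12.13 to 12.27, 12.27 to 12.44 and 11.93 to 12.14. The parental arrays at 0.1 µM lay above the others, and the resistant basal and 0.1 µM arrays overlapped. The excess over the higher of the other means was 0.22 and 0.14 on the log2 scale, and with median scaling over all probes it was 0.09 in the parental and -0.07 in the resistant line.

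JUN encodes the principal AP-1 partner of FOS. Parental log2 signals were 9.71, 9.77 and 9.73 under basal conditions, 9.84, 10.11 and 10.10 at 0.1 µM, and 9.43, 8.93 and 8.93 at 1 µM. Resistant log2 signals were 9.10, 8.91 and 9.0, then 9.23, 9.25 and 8.39, then 8.04, 8.09 and 8.20. In the resistant line the third 0.1 µM array lay below all basal arrays and the other two above them. The log2 difference between 0.1 µM and basal was 0.28 ± 0.16 in the parental line, and it turned to -0.04 with median scaling over all probes. In the deposited intensities JUN was lower at 0.1 µM, at 983 to 1075, than under basal conditions, at 1097 to 1198. In the resistant line the difference was -0.05 ± 0.16, and without the third 0.1 µM array it was 0.23.

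ATF3 encodes a stress-induced factor of the ATF/CREB family. Parental log2 signals were 9.15, 9.35 and 9.31 under basal conditions, 9.41, 9.50 and 9.47 at 0.1 µM, and 9.55, 9.62 and 9.38 at 1 µM. Resistant log2 signals were 8.20, 8.02 and 8.28, then 8.40, 8.15 and 8.39, then 7.86, 7.74 and 7.94. Its parental mean was highest at 1 µM and its resistant mean at 0.1 µM, where the arrays overlapped the basal ones. The parental difference between 0.1 µM and basal was 0.19 ± 0.11 on the log2 scale and turned to -0.11 with median scaling over all probes. In the deposited intensities the parental arrays were highest under basal conditions, at 801.8 to 816.3, against 694.4 to 733.6 at 0.1 µM and 720.7 to 777.5 at 1 µM.

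FOSB and JUNB, the other AP-1 subunits among the members, and IER2, a small nuclear early response protein, were highest under basal conditions. FOSB ran from 7.73 to 7.75 on the parental basal arrays and from 7.46 to 7.59 on the parental treated arrays, and from 7.49 to 7.63 and 7.37 to 7.49 on the resistant ones, on the log2 scale. Its basal arrays lay above all treated arrays in both lines. In the resistant line the margin was slight, 7.487 on the lowest basal array against 7.485 on the highest 0.1 µM array. The deposited intensities of these arrays, 170.5 and 173.9, lay in the other order. JUNB spanned 8.0 to 8.47 on the parental and 7.70 to 8.34 on the resistant arrays, and its treatments overlapped. IER2 spanned 6.24 to 7.47 and 6.98 to 7.74. Its lowest value was parental array 2 at 0.1 µM, with an intensity of 84.9 that was not above background. Leaving that array out turned the parental log2 difference between 0.1 µM and basal from -0.28 ± 0.20 to 0.08.

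Ranked over all 12547 tested genes by the excess of the 0.1 µM mean over the higher of the other 2 means, DUSP1, FOS and EGR1 ranked 1, 2 and 3 in each line. Their excesses were 1.22, 0.99 and 0.99 on the log2 scale in the parental line and 1.27, 1.02 and 0.69 in the resistant line. The median excess of all genes was -0.11 and -0.10, and the 99th percentile was 0.25 and 0.23. KLF2 ranked 41 and 6, IER3 198 and 525, JUN 99 and 4572, and ATF3 4312 and 505. JUNB, FOSB and IER2 had negative excesses in both lines, from -0.28 to -0.04. The first 3 ranks describe the values by which the members were selected.

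**Figure D3:**
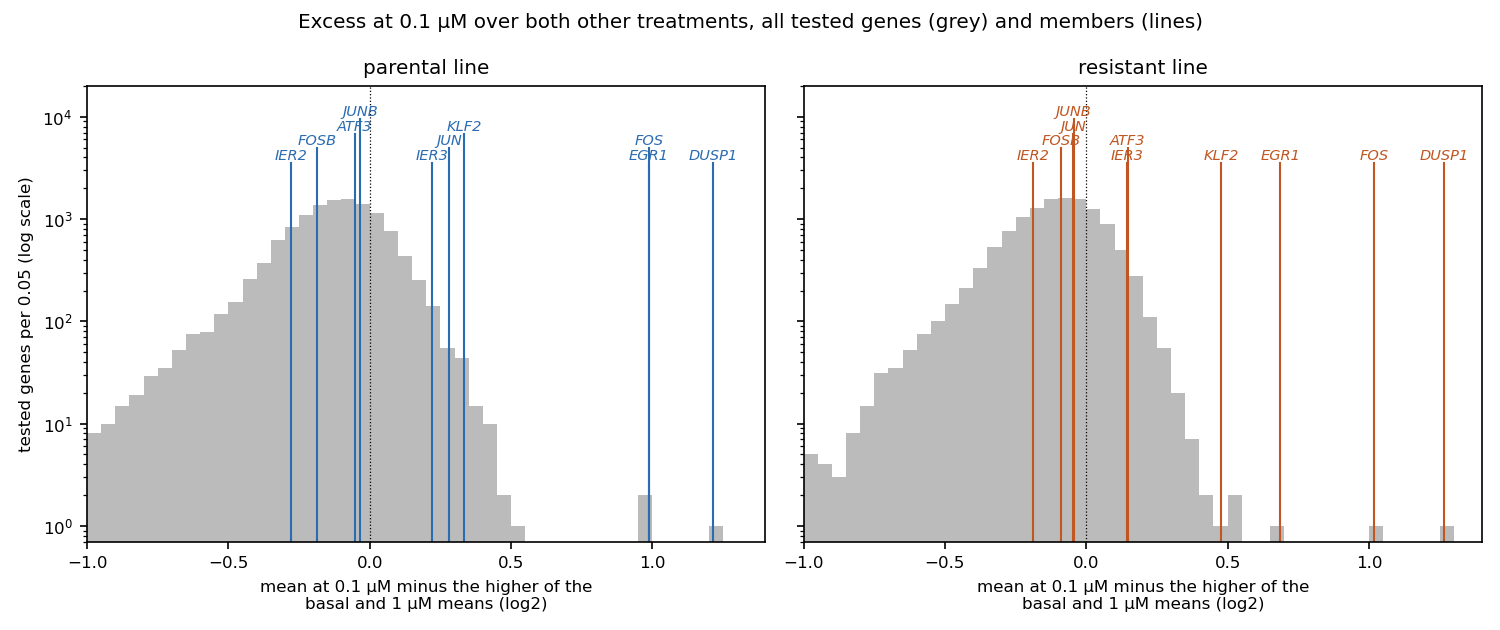
Excess of the 0.1 µM mean over the higher of the basal and 1 µM means (log2, x axis) for all 12547 tested genes (grey, number per bin of 0.05 on a log axis) in each line, with the members as coloured lines. DUSP1, FOS and EGR1 lie beyond the grey bulk in both lines, from 0.69 to 1.27, and IER2 and FOSB lie below 0.

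The comparisons of basal and 1 µM groups were tested with limma across all genes. The basal and 1 µM arrays also served to choose the members, so these tests are not independent of that choice on any set of arrays. The 0.1 µM arrays are in no contrast of the tests, but they enter the normalization and the estimate of the spread. The tests were therefore repeated on the 12 basal and 1 µM arrays alone, an alternative added after seeing the data. No member's call was lost there, and 4 were gained, those of IER2 in the resistant line at 1 µM (log2 difference -0.37, adjusted p = 0.0371), of EGR1 and FOS between the lines at 1 µM, and of ATF3 for the difference of the responses. At 1 µM against basal, EGR1, JUN and KLF2 fell in both lines, and FOS and ATF3 fell in the resistant line. That is 3 of 10 members lower and 0 higher in the parental line, where 13.6% of tested genes were called lower and 14.3% higher. It is 5 of 10 lower and 0 higher in the resistant line, against 12.1% and 10.9%. EGR1 fell by 1.13 ± 0.14 on the log2 scale in the parental line (adjusted p = 6.85e-07) and fell by 1.55 ± 0.14 in the resistant line (adjusted p = 4.2e-09), folds of 2.19 and 2.92. JUN fell by 0.64 ± 0.16 (adjusted p = 0.00292) and fell by 0.89 ± 0.16 (adjusted p = 0.000119). KLF2 fell by 0.90 ± 0.095 (adjusted p = 3.34e-08) and fell by 0.29 ± 0.095 (adjusted p = 0.0246), and ATF3 fell by 0.32 ± 0.11 in the resistant line (adjusted p = 0.0319). The resistant calls of KLF2 and ATF3 were each lost in 4 of 30 alternative settings. KLF2 lost its call without resistant basal replicate 2 or 3 or resistant 1 µM replicate 2 or 3 (adjusted p up to 0.0703), and ATF3 without resistant basal replicate 1 or 3 or resistant 1 µM replicate 1 or 2 (adjusted p up to 0.141). The median log2 difference of the members was -0.16 and -0.31, beside 0.01 and 0.00 for all genes.

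The remaining members had no call at 1 µM in either line. FOSB differed from basal by -0.23 ± 0.10 and -0.16 ± 0.10 on the log2 scale (adjusted p = 0.0842 and 0.271), JUNB by -0.16 ± 0.13 and -0.25 ± 0.13, and IER2 by -0.14 ± 0.20 and -0.36 ± 0.20. IER3 differed by 0.16 ± 0.091 in the parental line and -0.21 ± 0.091 in the resistant line (adjusted p = 0.201 and 0.105), and its parental value was -0.22 with median scaling over all probes. By means alone, 6 members in the parental line and 9 in the resistant line were lowest at 1 µM, where 35.8% and 38% of all tested genes were. With median scaling over all probes, the members called lower numbered 5 and 6 in the parental and resistant lines. That scaling also moved the share of higher among all called genes from 51.2% to 17.6% in the parental line and from 47.4% to 28.8% in the resistant line. The shares were 37.2% and 37.1% with median scaling over the kept probes.

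Between the lines under basal conditions, KLF2 was higher and JUN, DUSP1 and ATF3 were lower in resistant cells, so that 1 member was called higher and 3 lower, against 7.24% and 8.25% of all genes. KLF2 was 0.97 ± 0.095 higher on the log2 scale (adjusted p = 1.44e-08, fold 1.96), and ATF3 differed by -1.101 ± 0.11 (adjusted p = 1.54e-08, fold 2.14). JUN differed by -0.74 ± 0.16 (adjusted p = 0.00174) and DUSP1 by -0.35 ± 0.11 (adjusted p = 0.0288), a call lost when the first or second parental basal array or the third resistant basal array was left out (adjusted p up to 0.183). FOS, EGR1 and IER3 differed by 0.02, 0.05 and -0.03, with adjusted p of 0.952, 0.888 and 0.902. With median scaling over all probes, 1 member was called higher and 6 lower, FOSB, JUNB and IER3 being added, and the share of higher among all called genes went from 46.8% to 7.57%.

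At 1 µM the same comparison called KLF2 higher and JUN, DUSP1, IER3 and ATF3 lower in the resistant line, 1 member higher and 4 lower, against 9.32% and 11.9% of all genes. The log2 difference was 1.58 ± 0.095 for KLF2 (adjusted p = 9.05e-13, fold 2.98) and -1.66 ± 0.11 for ATF3 (adjusted p = 3.78e-12, fold 3.17). JUN differed by -0.99 ± 0.16 (adjusted p = 3.96e-05), DUSP1 by -0.40 ± 0.11 (adjusted p = 0.00953) and IER3 by -0.40 ± 0.091 (adjusted p = 0.00215). The DUSP1 call was lost without the first or second parental or the second resistant 1 µM array (adjusted p up to 0.0818). EGR1 and FOS differed by -0.37 ± 0.14 each (adjusted p = 0.0674 and 0.07), with all resistant arrays below all parental arrays. EGR1 passed the threshold in 7 of 30 alternative settings, among them without resistant basal replicate 2, without resistant 0.1 µM replicate 3 and with the basal and 1 µM arrays alone (adjusted p = 0.0261). FOS passed it in 5, among them without resistant 0.1 µM replicate 2 or 3, without resistant 1 µM replicate 2 and with the basal and 1 µM arrays alone (adjusted p = 0.0301). With median scaling over all probes the share of higher among all called genes went from 43.8% to 19.4%. At 0.1 µM, described without a test, the lines were apart on all arrays for 6 members, FOSB, JUN, DUSP1, KLF2, IER3 and ATF3, where 30.5% of all genes were.

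A difference between the responses of the lines to 1 µM was tested for each member. In simulated data this test recovered 32% of 1.5-fold differences, so a missing call does not show equal responses. Among the members it called KLF2 alone. The resistant response was 0.60 ± 0.13 higher on the log2 scale (adjusted p = 0.0314), that is, KLF2 fell less in resistant cells. This is 1 member higher and 0 lower, against 0.311% and 0.375% of all genes, and the call was lost in 13 of 30 alternative settings, with adjusted p up to 0.107. These were 2 changes of the fit and each single left-out array of the basal and 1 µM groups other than the second parental basal array. The share of higher among all genes called in this test went from 45.3% to 89% with median scaling over all probes. ATF3 had the next largest difference, -0.56 ± 0.15 (adjusted p = 0.0874), with all parental arrays above and all resistant arrays below basal at 1 µM after normalization. In the deposited intensities its 1 µM arrays lay below the basal ones in both lines. It passed the threshold in 3 alternative settings, with array weights (adjusted p = 0.0254), without resistant 0.1 µM replicate 3 (adjusted p = 0.0464) and with the basal and 1 µM arrays alone (adjusted p = 0.0452). The difference of the responses at 0.1 µM, a description, ranged from -0.33 for JUN to 0.14 for KLF2, and it was 0.00 ± 0.16 for DUSP1.

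**Figure D4:**
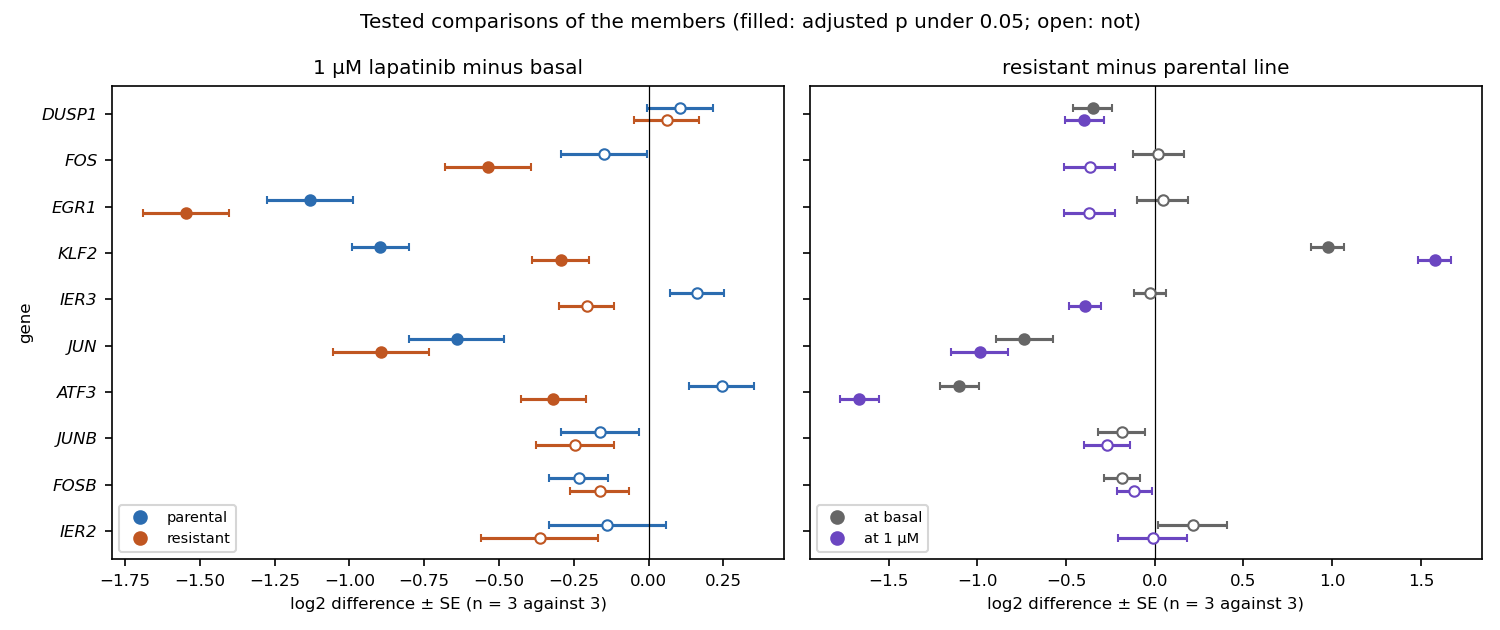
Log2 differences of the 10 members with their SE (n = 3 against 3) for 1 µM against basal in each line (left) and for the resistant against the parental line at basal and at 1 µM (right), filled where the adjusted p was under 0.05. EGR1, JUN and KLF2 are filled and below 0 in both lines on the left, and KLF2 is the filled gene above 0 on the right.

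Over the 18 arrays, the 45 pairs of members had a median Pearson r of 0.37, from -0.76 for KLF2 with ATF3 to 0.89 for FOS with DUSP1. FOS with EGR1 had 0.85 and EGR1 with DUSP1 0.73. Once group means were removed, the median was 0.06, with a range of -0.63 to 0.52, and FOS with DUSP1 had 0.12. The arrays share groups and scaling, so these values are a description. The other tested genes most like the mean standardized profile of the members were BIN1 (r = 0.84), JMJD4 (0.84), SRSF7 (0.82), ID1 (0.82), ISG15 (0.81), C1orf35 (0.81), DBN1 (0.80) and POLR1C (0.80). The least like were EGF (-0.81), GOLGB1 (-0.81), DPF1 (-0.78) and NPC1 (-0.78). The 8 most like have excesses at 0.1 µM of -0.11 to 0.16 on the log2 scale, under those of DUSP1, FOS and EGR1.

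Other early response genes, a list of 52 of which 44 were tested, had their highest mean at 0.1 µM in 10 cases in the parental line, 17 in the resistant line and 10 in both, where 22.7%, 24.9% and 6.03% of all tested genes did. The parental count is thus at the share of all genes, and the counts in the resistant line and in both lines lay above their shares. The list was chosen with earlier results of these data known, so nothing is read from these counts. The 4 largest parental excesses, on the log2 scale, were those of ZFP36 (0.41), an RNA-destabilizing protein, CCN2 (0.39) and CCN1 (0.38), secreted matricellular proteins, and NFKBIZ (0.32). In the resistant line they were CCN2 (0.55), CCN1 (0.32), NR4A2 (0.26), an orphan nuclear receptor, and ZFP36 (0.19). The arrays were apart in both lines for CCN2 and NR4A2. None of these reached the excess of DUSP1, FOS or EGR1. At 1 µM against basal, 14 of the 44 rose and 7 fell in the parental line, against 14.3% and 13.6% of all tested genes. In the resistant line 8 rose and 8 fell, against 10.9% and 12.1%. KLF4 rose by 1.24 ± 0.12 and 1.11 ± 0.12 on the log2 scale, BTG1 rose by 1.17 ± 0.11 and 1.12 ± 0.11, and BHLHE40 fell by 1.48 ± 0.11 and fell by 1.39 ± 0.11, each with an adjusted p of at most 3.38e-08. Their levels at 0.1 µM lay between basal and 1 µM, without a peak. Between the lines, 2 of the 44 were higher and 9 lower in resistant cells under basal conditions, against 7.24% and 8.25% of all genes. CCN2 differed by -1.30 ± 0.13 on the log2 scale (adjusted p = 1.17e-08) and CEBPD by -0.94 ± 0.12 (adjusted p = 1.19e-06). At 1 µM, 1 of the 44 was higher and 14 were lower, against 9.32% and 11.9% of all genes. No response difference was called among them, where 0.311% of all genes were called higher and 0.375% lower.

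Feedback and target genes of the MAPK pathway, 11 of 18 tested, had their highest mean at 0.1 µM in 2 cases in the parental line, SPRY1 and SPSB1, in 1 case in the resistant line, DUSP4, and in 0 in both lines. With 6.03% of all tested genes highest there in both lines, a count of 0 among 11 is near that share and nothing is read from it. Against basal, 8 of the 11 were lower at 0.1 µM in both lines and 1, SPRY1, was higher in both, with log2 differences of 0.28 and 0.18. The share of all genes lower there in both lines was not computed, so nothing is read from this count. SPSB1 differed by 0.29 in the parental and -0.16 in the resistant line. At 1 µM, 6 fell and 0 rose in the parental line, where 13.6% of all tested genes were called lower and 14.3% higher. In the resistant line 9 fell and 0 rose, against 12.1% and 10.9%. SPRY4, an inhibitor of receptor signalling, fell by 2.17 ± 0.13 (adjusted p = 2.31e-12) and fell by 1.83 ± 0.13 (adjusted p = 5.89e-11) on the log2 scale. Its log2 differences at 0.1 µM were -0.86 and -1.104. CCND1, cyclin D1, fell by 0.91 ± 0.093 and fell by 0.98 ± 0.093 at 1 µM, and its log2 differences at 0.1 µM were -0.40 and -0.46. DUSP4, a phosphatase related to DUSP1, differed at 0.1 µM by -0.42 in the parental and 0.19 in the resistant line and fell by 0.94 ± 0.13 and fell by 0.44 ± 0.13 at 1 µM.

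Among 14 regulators upstream of the members, 12 were tested. The counts at 1 µM that follow stand beside shares over all tested genes. These shares were 14.3% called higher and 13.6% lower in the parental line, and 10.9% and 12.1% in the resistant line. SRF had a log2 excess at 0.1 µM of 0.16 and 0.10. FOXO3 rose by 0.92 ± 0.098 (adjusted p = 3.79e-08) and 0.36 ± 0.098 (adjusted p = 0.0084) at 1 µM and FOXO4 by 0.52 ± 0.16 and 0.74 ± 0.16. In all, 4 rose and 1 fell in the parental line, and 2 rose and 0 fell in the resistant line. Of 8 heat shock genes, 4 fell in the parental and 5 in the resistant line at 1 µM, HSPA1A differing by -0.53 ± 0.097 and -0.52 ± 0.097, and 0 rose. Of 7 tested ATF4 target genes, 3 rose and 1, PSAT1, fell in the parental line. In the resistant line 0 rose and 2, PSAT1 and PHGDH, fell. ASNS rose by 0.66 ± 0.099 in the parental line and differed between the responses by -0.70 ± 0.14 (adjusted p = 0.0139). Of 4 tested p53 targets, 0 were called at 1 µM in either line. With so few genes this is near the shares above, and a missing call does not show an unchanged level. The part of these genes in the members' values was not tested.

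**Figure D5:**
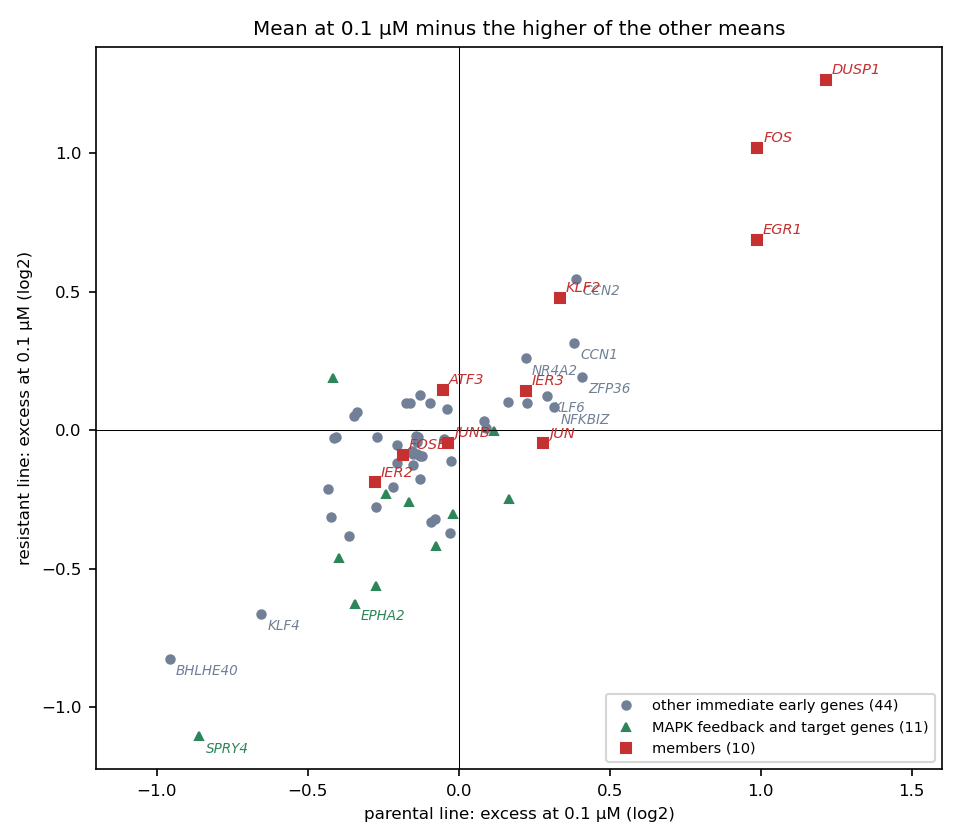
Excess of the 0.1 µM mean over the higher of the other means (log2) in the parental (x axis) and resistant (y axis) lines for the 10 members (red squares), 44 other early response genes (grey circles) and 11 MAPK feedback and target genes (green triangles). DUSP1, FOS and EGR1 lie in the upper right corner, and SPRY4 and BHLHE40 lie in the lower left.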

How the data were processed

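Labelled cRNA from 18 SKBR3 samples was hybridized to 1-colour Illumina arrays. Signals were exported with BeadStudio, per the submitters' processing notes, and no version is named. The first deposited table, which is not normalized, holds each probe's intensity on a linear scale, and the table normalized by the authors holds an intensity with the same median (84.7) in all columns, as seen from the values. Both hold 48803 probes, while 48697 are stated per the labels. Neither gives detection p-values or control probes, so background was taken as the mode of each array's log2 intensities, and a probe counted as above it when it passed the upper 0.05 point of a normal distribution centred there, with the SD of the values below the mode.

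Intensities were corrected by normexp with an offset of 50, quantile-normalized and put on the log2 scale with limma 3.58.1 in R 4.3.3. The offset shrinks differences of dim probes such as FOS, and quantile scaling removes any change common to all probes. The filter kept 22706 probes that passed this level on 3 or more arrays, and each gene was represented by its brightest kept probe, 3273 genes having several. Probe names came from the platform annotation and were updated by gene identifier. Of the probes, 28098 had 1 symbol, 13 several and 20692 none. The annotation's platform differs in name from that in the labels. All 6 groups entered 1 limma fit with an intensity trend, without a block. Tests were two-sided, p-values were adjusted by Benjamini-Hochberg over the 12547 genes, and a call is an adjusted p under 0.05. The procedure was checked on simulated data.

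The members and lists were chosen with earlier results of these data known. Named genes are all members, and from each list up to 4 genes with the largest called change in a comparison or the largest excess at 0.1 µM. Not every one of these is printed. Replicate numbers are in the labels. Over 45 same-numbered pairs, deviations from group means correlated at r = -0.204 to 0.167, and no pair of groups compared exceeded 0.1, so the numbers were not taken as pairing. Alternatives were the authors' values, no background correction, median scaling over all probes or, added after seeing the data, over kept probes, other filters, other probe rules, no trend, array weights, a replicate block, each array left out and, also added after seeing the data, the basal and 1 µM arrays alone. Promoters are from RefSeq (GRCh38.p14) and were searched from 250 bases before to 50 after the start.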

Additional observations from a re-analysis of the deposited data

Results flagged for a closer look

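KLF2 stands out because its response to 1 µM differed between the lines by a test of the difference itself. The log2 difference between 1 µM and basal was 0.603 higher in the resistant line (limma, adjusted p = 0.0314). The call was lost in 13 of 30 alternative settings, with adjusted p up to 0.107. Of these, 11 left out a single array, and the other 2 tested every kept probe or dropped the intensity trend. KLF2 arrays at 1 µM lay below all basal arrays in both lines.

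ATF3 stands out because its normalized values moved in opposite directions in the lines on all arrays. The deposited intensities did not. There the 1 µM arrays lay below the basal ones in both lines, at 720.7 to 777.5 against 801.8 to 816.3 in the parental line. In the resistant line they were 194.6 to 220.5 against 243.6 to 318.2. After normalization, its log2 difference between 1 µM and basal was 0.244 in the parental line (adjusted p = 0.0949), with all 3 arrays above basal. It was -0.318 in the resistant line (adjusted p = 0.0319), with all 3 below. The test of the difference gave -0.563 (adjusted p = 0.0874) and did not pass the threshold, which it passed with the basal and 1 µM arrays alone (adjusted p = 0.0452). With median scaling over all probes the parental value was -0.022.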

How the results depend on the processing

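With median scaling over all probes, which moves the median of all genes by -0.174 between parental 0.1 µM and basal, by -0.136 between parental 1 µM and basal and by -0.19 between the lines under basal conditions, 5 members were called in the parental line at 1 µM, 7 between the lines under basal conditions, and 3 (EGR1, FOS and DUSP1) had all parental 0.1 µM arrays above the others. Under it the parental difference between 0.1 µM and basal was -0.038 for JUN and -0.107 for ATF3, so the parental peak of JUN rests on the scaling. The cause was not tested. DUSP1 and FOS stood apart at 0.1 µM in both lines under all 29 alternatives, most of which could not undo this. The other filters, probe rules and fits left the values of these genes unchanged. Leaving out an array could act only through the normalization. These values also chose the members, so this is a description. The members whose responses at 1 µM differed numbered 0 when every kept probe was tested and 0 without the intensity trend, and 2 with array weights or with the basal and 1 µM arrays alone. Over all 12047 genes tested on those arrays, 117 were called higher and 160 lower for this difference, against 39 and 47 with all arrays. Leaving out 1 array at a time, that number ranged from 0 to 2, the number called in the resistant line at 1 µM from 3 to 5 (3 without resistant basal replicate 3 or resistant 1 µM replicate 2), and the resistant members apart at 0.1 µM from 3 to 6 (6 without resistant 0.1 µM replicate 3). With the replicate block, the counts were 3, 5 and 4 for the parental response, the resistant response and the lines under basal conditions, 6 for the lines at 1 µM, where EGR1 was added, and 1 for the difference. The block changed no other member's call in these 5 comparisons. The dimness of FOS and IER2 limits their differences, and 3 arrays a group limit all of them.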
